A study of Macaca mulatta with 24 samples.

Results

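Ileum of rhesus macaques exposed to 7.4 Gy of total-body irradiation (TBI) was compared with ileum of macaques exposed to 6.7 Gy, at days 4 and 7 after exposure. All arrays with these doses and days were taken from their labels, which gave 8 arrays of 7.4 Gy and 8 arrays of 6.7 Gy, 4 per dose and day, 16 of the 24 arrays in the series. The 4 unirradiated control arrays, which are labelled day 4, and the 4 arrays of day 12 were left out of the fits, and the controls serve here only as a background level. The animals were young-adult males given a single uniform dose of cobalt-60 gamma rays or a sham exposure, and no agent other than radiation is named for any group. Different animals were killed at each time point, so no animal was followed over time. RNA came from a piece of whole ileal wall of approximately 3 cm, and the labels mention no pooling. The values are Cy3 signals of 1-colour oligonucleotide arrays (Agilent rhesus 4x44 format). A level here is the log2 signal of a probe minus the 75th percentile of all probes of its array, and a difference is the log2 level at 7.4 Gy minus that at 6.7 Gy with day as a block. The higher dose was 1.1 times the lower, a step of 0.7 Gy.

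The lining of the small intestine is renewed by proliferating crypt cells, which are among the most radiation-sensitive cells of the body. DNA damage stabilises p53, which halts the cell cycle through CDKN1A and can trigger apoptosis, and the villus epithelium thins when crypts no longer replace shed cells. Repair of the wall draws on macrophages, fibroblasts and newly deposited collagen matrix. The comparison asks which of these responses differed between neighbouring doses at the same time after exposure.

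Genes of ileal bile acid handling were above background, as the ileal label would have it. FABP6, the ileal bile acid binding protein, was well above background on 16 of 16 arrays with levels of 7.00 to 9.18, and SLC10A2 and FGF19 were on 16 as well. Of the enterocyte genes looked up, which do not tell ileum from other gut segments, VIL1 and CDX2 were above background on 16 arrays and FABP2 on 8. Of the liver and pancreas genes looked up, ALB was above background on 6 arrays, CPA1 on 11 and PNLIP on 1, while TTR and CLPS were on 16. The share of probes well above background averaged 81.5% ± 5.44 at 6.7 Gy and 82.2% ± 4.42 at 7.4 Gy (SD, n = 8 each, exact permutation test within day, two-sided p = 0.764), and the 75th percentile of signal averaged 1122 and 1079 intensity units (exact p = 0.405). The share ran by slide, from 72.7% to 76.5% on the lowest of the 6 slides to 86.5% to 87.3% on the highest, and every slide carried both doses, 1 or 2 arrays of each. Position on the slide did not: position 1 held 2 arrays of 6.7 Gy and none of 7.4 Gy, and position 4 held 2 of 7.4 Gy and none of 6.7 Gy, so dose cannot be told apart from position there, and only positions 2 and 3 held both doses. With position as a block, the probes at an unadjusted p under 0.05 numbered 3045, against 2077 without it. One 6.7 Gy array of day 4, replicate 4, stood apart on the first 2 principal components and had a mean correlation of 0.965 with the 3 other arrays of its group. In bulk tissue, fewer cells of a type and less RNA per cell cannot be told apart.

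No probe met the call rule for a dose difference, a Benjamini-Hochberg adjusted p under 0.05 in limma with a fold of at least 2 (0 of 34274 probes tested, 0% called, smallest adjusted p = 0.303). Without adjustment, 49 probes had p under 0.05 and a fold of at least 2 (0.143% of probes), 21 higher (0.0613%) and 28 lower (0.0817%) at 7.4 Gy. At any fold, 2077 probes (6.06%) had an unadjusted p under 0.05, 1267 higher (3.7%) and 810 lower (2.36%) at 7.4 Gy. The pairwise test named in the study's methods called 0 probes after adjustment and 38 without it. Within each day the calls were also 0, with 121 probes (0.353%) at an unadjusted p under 0.05 and a fold of at least 2 on day 4 and 131 (0.382%) on day 7. In the same fit, the step from day 4 to day 7 gave 364 called probes (1.06%), 218 higher and 146 lower on day 7, with a smallest adjusted p of 2.19e-05.

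The 95% intervals show what these arrays could resolve. The median interval reached 0.29 log2 units on either side of the estimate, a 1.22-fold difference, and for 94.5% of probes the whole interval lay within a 2-fold difference in either direction. The estimate was under 1.5-fold for 98.5% of probes and at least 2-fold for 84 probes (0.245%). Over all tested probes, dose took 6.0% of the sum of squares, its interaction with day 5.2% and day 18.5%, where an equal share per degree of freedom would be 6.67%. Pairs of arrays from the same day correlated with a median r of 0.984 within a dose and 0.983 between doses, a correlation over probes, which do not count as replicates. The dose differences spread less widely than the day differences.

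**Figure D1:**
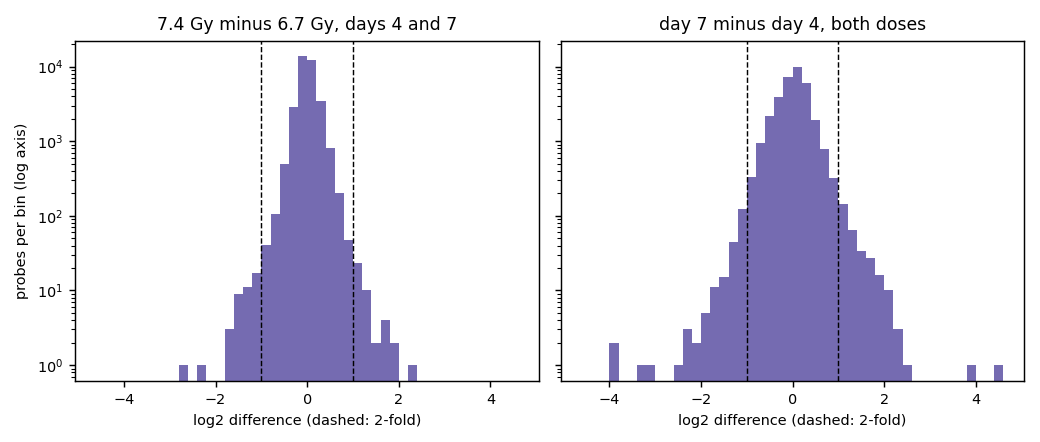
Histograms of log2 differences over the 34274 probes tested, with probes per bin on a log axis and dashed lines at a 2-fold difference, for the dose comparison and for the other contrasts named above the panels. The dose comparison has 84 probes at or beyond 2-fold, against 512 for day 7 minus day 4.

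The gene of smallest p in the dose comparison was RBP5, a cytosolic carrier of retinol, which was lower at 7.4 Gy. On day 4 its levels were -1.0, -1.26, -0.74 and -2.03 at 6.7 Gy and -2.33, -2.12, -2.38 and -2.13 at 7.4 Gy. On day 7 they were -1.84, -1.05, -1.17 and -1.30 at 6.7 Gy and -2.99, -2.47, -2.19 and -2.66 at 7.4 Gy. Each 7.4 Gy array of either day lay below each 6.7 Gy array, and the control arrays, at -3.32 to -2.13, lay in or below the 7.4 Gy range. The difference was -1.11 (SE 0.17, 95% interval -1.48 to -0.74), or 2.16-fold lower at 7.4 Gy, with a limma p of 8.83e-06 and an adjusted p of 0.303. RBP5 and ATP2B1 (a calcium pump of the plasma membrane, -0.38, named after its values were seen) were the 2 probes (0.00584%) whose doses did not overlap over all 16 arrays, and 9 probes were lower and 9 higher (0.0263% each) without overlap within both days. On day 4 alone the doses did not overlap for 525 probes higher (1.53%) and 292 lower (0.852%), and on day 7 for 628 higher (1.83%) and 655 lower (1.91%). RBP5 passed the call rule in 2 of the alternatives. Without day 4 6.7 Gy replicate 4 its difference was -1.24 (adjusted p = 0.00613), and with array quality weights it was -1.29 (adjusted p = 0.00531), while with slide as a fixed block it was -1.11 (adjusted p = 0.83).

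CCR7, the chemokine receptor that guides naive and central memory T cells and dendritic cells to lymphoid tissue, was lower at 7.4 Gy. Its day 4 levels were -1.80, -2.56, -1.22 and -1.71 at 6.7 Gy and -3.59, -2.17, -2.19 and -2.41 at 7.4 Gy. Its day 7 levels were -3.24, -1.92, -1.77 and -2.58 at 6.7 Gy and -4.06, -4.00, -3.45 and -4.67 at 7.4 Gy. The doses overlapped on day 4 and not on day 7, and control arrays were at -2.48 to -1.36. The difference was -1.22 (SE 0.29, adjusted p = 0.803), 2.32-fold. The 18 tested genes of the T cell and cytotoxic lymphocyte list had a median difference of -0.04 (6 higher, 12 lower), and KLRD1, a receptor of natural killer cells, was next in p with -0.38 (SE 0.25). Under the alternatives the KLRD1 difference ran from -0.83 to -0.20.

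LDHA, which turns pyruvate to lactate in glycolysis, measured 5.52, 4.82, 5.11 and 5.55 at 6.7 Gy and 4.63, 5.01, 4.63 and 4.69 at 7.4 Gy on day 4. On day 7 it measured 5.07, 5.08, 5.18 and 5.35 at 6.7 Gy and 4.11, 5.08, 4.21 and 4.86 at 7.4 Gy. On each day a single array, replicate 2 of the 7.4 Gy group, reached the 6.7 Gy range. The difference of LDHA was -0.56 (SE 0.15, adjusted p = 0.812), and its other 2 probes gave -0.50 and -0.46. IRF7, the transcription factor that amplifies type I interferon, measured 3.12, 1.91, 2.96 and 3.24 at 6.7 Gy on day 4 against 2.08, 2.59, 1.70 and 2.48 at 7.4 Gy. Its day 7 levels were 2.94, 2.99, 2.59 and 3.03 at 6.7 Gy against 2.03, 1.97, 2.45 and 1.99 at 7.4 Gy, without overlap. The difference of IRF7 was -0.68 (SE 0.18, adjusted p = 0.812).

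Other genes of small p that were lower at 7.4 Gy had smaller differences: CISD1, an iron-sulfur protein of the outer mitochondrial membrane, -0.40 (SE 0.10), ASB7, a substrate adaptor of a ubiquitin ligase, -0.34 (SE 0.09), ATOSB -0.51 (SE 0.11) and TMEM89 -0.70 (SE 0.18). The second probe of ATOSB gave -0.16 (SE 0.10). The probes of TRIM22, an antiviral and p53-responsive gene, disagreed. Its brightest probe was 2.78-fold lower at 7.4 Gy (-1.48, SE 0.38, adjusted p = 0.812) while the other 2 probes gave 0.21 and 0.24, and control arrays ran from -0.61 to 4.35 on the brightest probe. The mean of the 3 TRIM22 probes differed by -0.34. The named gene values are therefore those of single probes, and a gene with discordant probes has no settled direction.

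Among genes higher at 7.4 Gy, APH1B, a subunit of the gamma-secretase that cleaves Notch and other membrane proteins, was the gene of smallest p. Its day 4 levels were 0.15, 0.31, 0.02 and -0.07 at 6.7 Gy and 0.76, 0.49, 0.44 and 0.56 at 7.4 Gy. Its day 7 levels were -0.41, -0.34, -0.27 and -0.16 at 6.7 Gy and 0.31, -0.09, -0.07 and 0.32 at 7.4 Gy. The doses did not overlap within either day, whereas control arrays spanned -0.71 to 0.55. The difference of APH1B was 0.44 (SE 0.09, adjusted p = 0.803), 1.35-fold, and its second probe gave 0.40.

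MAMU-DQA1, a class II MHC chain that presents peptides to CD4+ T cells, measured 1.59, 1.70, 1.79 and 1.94 at 6.7 Gy and 2.53, 2.69, 2.63 and 1.94 at 7.4 Gy on day 4. On day 7 it measured 1.39, 0.99, 2.04 and 1.12 at 6.7 Gy and 2.33, 2.15, 1.87 and 1.68 at 7.4 Gy, so the doses overlapped on both days. Its difference was 0.66 (SE 0.15, adjusted p = 0.803) and 0.59 on a second probe, while the control arrays, at 1.77 to 4.00, reached above all irradiated ones. This family is polymorphic and has near-identical copies, so probe binding can differ between animals and the value is uncertain. The remaining genes were SLC41A3, a magnesium transporter (0.31, SE 0.07), SMARCA1, an ATPase of chromatin remodelling complexes (0.48, SE 0.11), TTC7B, a scaffold of a phosphatidylinositol 4-kinase (0.56, SE 0.14, and 0.36 with position as a block), and LMCD1, a LIM domain protein (0.53, SE 0.13). ADAMTS5 (0.52) and COL3A1 (0.70) completed the 8 and belong to the matrix lists described next.

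**Figure D2:**
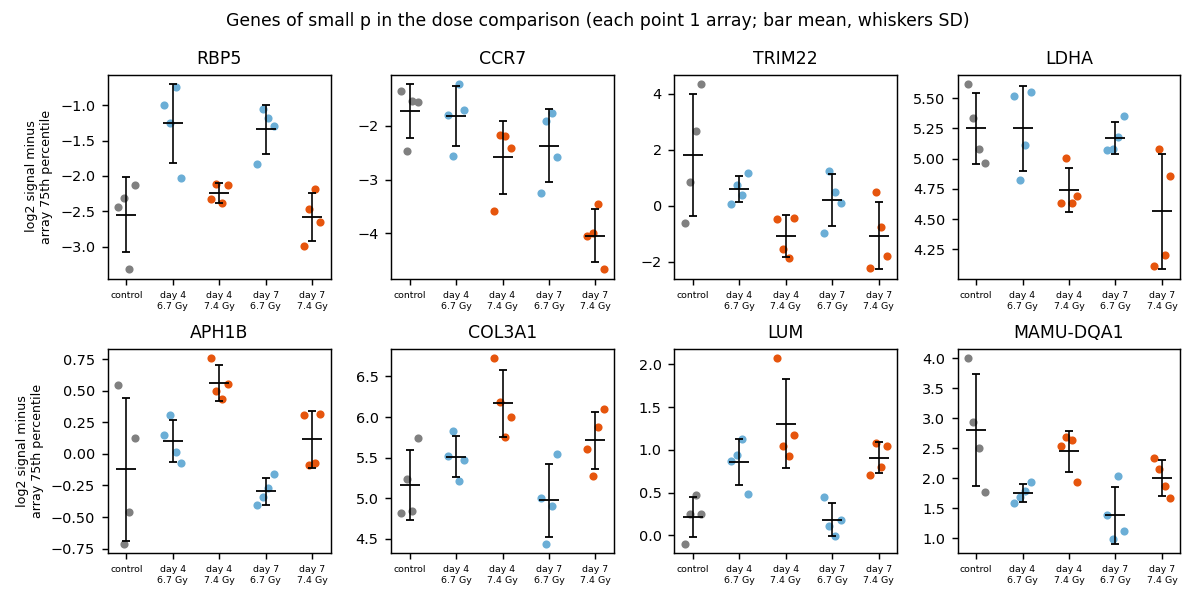
Levels (log2 signal minus the array's 75th percentile) of 8 genes on each of 20 arrays, by group, with the group mean as a bar and whiskers of 1 SD (n = 4 arrays per group, controls included). RBP5 at 7.4 Gy lies below every 6.7 Gy array, APH1B does not overlap between doses within a day, and COL3A1 overlaps between doses on both days.

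Genes of collagens and matrix, the fibres and proteoglycans of connective tissue, were higher at 7.4 Gy in all 21 members tested, of 30 in the list, and none was called. Their differences ran from 0.07 to 0.70 with a median of 0.39, against a median of 0.00 over all 10838 genes tested, of which 50.2% were higher. The median was 0.35 on day 4 and 0.31 on day 7, and 20 of 21 members were higher on both days, as were 2992 of all genes, while 2880 (26.6%) were lower on both. Of all genes, 54.6% were higher on day 4 and 46.4% on day 7, against which counts per day are to be read. An unadjusted p under 0.05 on the higher side was found for 11 of 21 members, against 4.32% of all genes. Members of this list are transcribed largely by the same cells and are not independent.

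COL3A1, the type III collagen of soft tissue, measured 5.52, 5.83, 5.22 and 5.48 at 6.7 Gy and 6.73, 6.19, 5.75 and 6.01 at 7.4 Gy on day 4. On day 7 it measured 5.01, 4.44, 4.91 and 5.54 at 6.7 Gy and 5.60, 5.28, 5.88 and 6.10 at 7.4 Gy. One array of each dose overlapped on each day, and the control arrays ran from 4.82 to 5.75. The difference was 0.70 (SE 0.17, 95% interval 0.33 to 1.06, adjusted p = 0.803), 1.62-fold, and its 3 further probes gave 0.48, 0.54 and 0.45. LUM, the collagen-binding proteoglycan lumican, measured 0.87, 0.95, 1.13 and 0.49 at 6.7 Gy against 2.07, 1.05, 0.92 and 1.18 at 7.4 Gy on day 4. On day 7 LUM measured 0.45, 0.11, -0.01 and 0.18 against 0.70, 1.08, 0.80 and 1.05, without overlap, and the control arrays were at -0.10 to 0.47. The difference of LUM was 0.59 (SE 0.15, adjusted p = 0.812), 1.5-fold.

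Further members, picked after their values were seen, were COL1A2 (0.55, SE 0.19) and COL1A1 (0.41, SE 0.14), the chains of type I collagen, ELN (0.54, SE 0.23), which makes elastin, and FBN1 (0.40, SE 0.14), which makes fibrillin. The list level, the mean over its tested members of each array's deviation from that member's average, ran from -0.64 to 0.66 at 6.7 Gy, from -0.21 to 0.79 at 7.4 Gy and from -1.04 to -0.22 in the controls. The doses overlapped on day 4 and did not on day 7, when they ran from -0.64 to -0.26 and from -0.21 to 0.31. Of the 38 lists, the others without overlap on day 7 were hypoxia and glycolysis and AhR-inducible, both lower at 7.4 Gy. Hypoxia and glycolysis ran from 0.01 to 0.19 at 6.7 Gy and from -0.18 to -0.05 at 7.4 Gy. AhR-inducible ran from 0.18 to 0.69 at 6.7 Gy and from -0.64 to 0.17 at 7.4 Gy. With slide as a fixed block the list median was 0.38 with 20 of 21 higher, with position on the slide as a block 0.41, and without day 4 6.7 Gy replicate 4 it was 0.37.

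**Figure D3:**
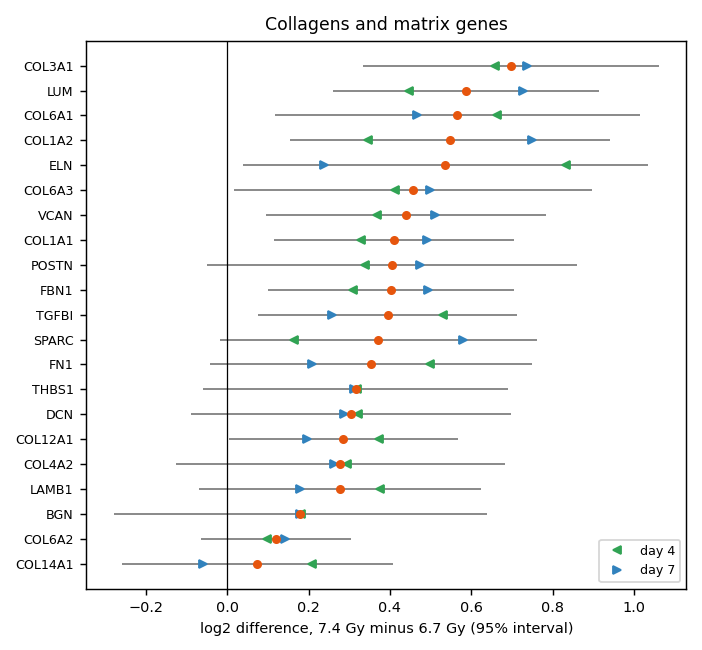
Dose difference (log2, 7.4 Gy minus 6.7 Gy) with its 95% limma interval for each of the 21 collagens and matrix genes tested. All 21 estimates lie above 0, from 0.07 to 0.70, and none was called.

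Several lists of the gut wall were mostly higher at 7.4 Gy too. Of the matrix metalloproteinases and inhibitors, which cut and protect matrix, 12 of 15 were higher (median 0.23), led by ADAMTS5, which cleaves proteoglycans (0.52, SE 0.12), and MMP2, gelatinase A (0.42, SE 0.17, 95% interval 0.05 to 0.79). Of the coagulation and fibrinolysis genes 18 of 22 were higher (median 0.25). On the higher side 5 had an unadjusted p under 0.05, against 4.32% of all genes. They were led by TFPI, which inhibits the tissue factor pathway (0.41, SE 0.11), and THBD, thrombomodulin (0.65, SE 0.22). The second probe of TFPI gave 0.23 (SE 0.21). TFPI levels were -0.94 to -0.44 at 6.7 Gy and -0.48 to -0.01 at 7.4 Gy on day 4, and -1.40 to -0.77 and -0.84 to -0.58 on day 7, so the doses overlapped on both days. The coagulation count was 14 of 22 with position on the slide as a block.

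Over both days together, markers of other cell types of the wall lay mostly on the same side. Of 14 smooth muscle genes 13 were higher over both days (median 0.19), 14 on day 4 (median 0.43) and 8 on day 7 (median 0.05). CALD1, caldesmon, was first in p (0.31, SE 0.14) before SYNM, synemin (0.32, SE 0.17). Of 18 enteric neuron and glia genes 17 were higher (median 0.25, and from 0.17 to 0.44 under the alternatives). The neurofilament gene NEFM (0.87, SE 0.28) and SNAP25 of the synaptic release machinery (0.56, SE 0.20) led that list. Of 13 endothelial genes 11 were higher (median 0.19), 12 on day 4 (median 0.28) and 8 on day 7 (median 0.07), with VWF, von Willebrand factor, at 0.46 (SE 0.21) and the junction gene ESAM at 0.43 (SE 0.20). The smooth muscle level ran from -0.59 to 0.44 at 6.7 Gy, from -0.55 to 0.75 at 7.4 Gy and from -2.24 to 0.29 in controls, so the doses overlapped. On day 7 its mean was -0.17 at 7.4 Gy, below the -0.02 at 6.7 Gy. Whether the amount of muscle and serosal wall in each piece has a part in the matrix differences was not tested.

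Macrophage genes were higher at 7.4 Gy in 13 of 15 members (median 0.26, 0.32 on day 4 and 0.17 on day 7). On both days at once 12 were higher, as were 27.6% of all genes. An unadjusted p under 0.05 on the higher side was found for 5, against 4.32% of all genes. Within single days it was found for 5 on day 4 and 0 on day 7. FOLR2, a folate receptor of resident macrophages, differed by 0.34 (SE 0.11) and CSF1R, the receptor for macrophage colony-stimulating factor, by 0.35 (SE 0.12). CSF1R measured 0.29, 0.88, 0.47 and 0.75 at 6.7 Gy and 1.14, 1.03, 1.14 and 1.05 at 7.4 Gy on day 4, without overlap. On day 7 CSF1R measured 0.29, 0.17, -0.26 and -0.07 against 0.39, 0.41, -0.21 and 0.34, and the 7.4 Gy replicate 3 array fell in the 6.7 Gy range. Controls lay at 0.87 to 1.16, from the top of the 6.7 Gy range of day 4 to just above that of 7.4 Gy. TREM2 (0.57, SE 0.20) and CD14 (0.49, SE 0.18), both receptors of myeloid cells, were named after their values were seen. The macrophage list level did not overlap on day 4, with -0.29 to 0.30 at 6.7 Gy and 0.34 to 0.53 at 7.4 Gy, and overlapped on day 7. This was the only list level of the 38 without overlap on day 4.

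Of the other cell type lists, mast cell genes were higher in 9 of 11 (median 0.22, and 0.12 without day 4 7.4 Gy replicate 1, with 11 higher on day 4 and 5 on day 7), led by GATA2 (0.45, SE 0.22) and MS4A2, the beta chain of the IgE receptor (0.28, SE 0.19). Mesothelium genes were higher in 4 of 4 (UPK3B 0.18, ITLN1 0.35), platelet and megakaryocyte genes in 5 of 7 (7 on day 4 and 3 on day 7, GNG11 0.25, TREML1 0.21) and adipocyte genes in 4 of 7. ITLN1 is also in the Paneth and antimicrobial list, so it does not mark mesothelium alone. The adipocyte genes CIDEA (1.58, SE 0.90) and ADIPOQ, adiponectin (1.29, SE 0.79), had the largest SEs of their list, and their intervals span 0, and with normexp background correction they were 0.46 and 0.79. Granulocyte genes were lower in 6 of 9 (MMP25 0.22, PRG2 0.29 among those higher) and red cell genes in 6 of 9 (KLF1 0.29, and HBG2 -0.16 and 0.16 on its probes). Hepatocyte and pancreas genes were higher in 5 of 8 (SERPINC1 -0.40, PRSS1 0.26).

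In contrast, all 10 plasma cell genes tested were lower at 7.4 Gy (median -0.29, range -0.73 to -0.06), and 7 were lower on both days. Without day 7 7.4 Gy replicate 4 the median was -0.16. None had an unadjusted p under 0.05, TXNDC5, a disulfide isomerase of the secretory pathway, being first with -0.38 (SE 0.19), and XBP1, the transcription factor of secretory cells, next with -0.25 (SE 0.14). TNFRSF17, the plasma cell receptor BCMA (-0.73, SE 0.43), and JCHAIN, which joins IgA into dimers (-0.41, SE 0.24), were named after their values were seen. The plasma cell level ran from -0.33 to 0.53 at 6.7 Gy, from -1.19 to 0.51 at 7.4 Gy and from 0.39 to 1.91 in controls, so the doses overlapped. Of 8 B cell genes 7 were lower (median -0.20, and -0.12 without day 4 6.7 Gy replicate 4), with 4 higher on day 4 (median 0.01) and 1 on day 7 (median -0.40). With normexp background correction the median was -0.09. FCRL2, an Fc receptor-like protein, was at -0.48 (SE 0.26), which was -0.07 with that correction. The B cell receptor chain CD79B was at -0.28 (SE 0.16), and at -0.54 (SE 0.26) on its second probe.

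Protein folding and metabolic genes were mostly lower at 7.4 Gy. In the endoplasmic reticulum and integrated stress list 16 of 21 were lower (median -0.19, and from -0.22 to -0.11 under the alternatives). At an unadjusted p under 0.05 there were 6 on the lower side and 1 on the higher. DDIT3, the transcription factor CHOP (-0.31, SE 0.09), and HERPUD1 of protein degradation at the reticulum (-0.28, SE 0.11) led that list. Of 17 heat shock genes 13 were lower (median -0.15, and -0.06 without day 4 6.7 Gy replicate 4), with the mitochondrial chaperonin HSPD1 at -0.32 (SE 0.17) and the constitutive chaperone HSPA8 at -0.22 (SE 0.12). Of 21 cholesterol synthesis and uptake genes 16 were lower (median -0.14, 4 at an unadjusted p under 0.05), with FDPS, farnesyl diphosphate synthase, first in p at -0.26 (SE 0.09). The unadjusted share of all genes on the lower side was 2.36%.

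Of 39 respiratory chain genes, which make the subunits of mitochondrial ATP production, 36 were lower (median -0.13) and 29 were lower on both days. Their differences were small, from -0.27 to 0.15, with ATP5F1A of ATP synthase at -0.26 (SE 0.10) and UQCRC2 of complex III at -0.25 (SE 0.11). With quantile normalization the median was -0.04 and 29 of 39 were lower, so this count leans on the scaling. Of 17 hypoxia and glycolysis genes 13 were lower (median -0.11, 0.00 on day 4 and -0.24 on day 7), including CA12, a membrane carbonic anhydrase (-0.53, SE 0.14), beside LDHA. CA12 measured 0.96, 0.91, 1.39 and 1.79 at 6.7 Gy and 0.64, 0.32, 0.84 and 0.61 at 7.4 Gy on day 4, without overlap, and overlapped on day 7. Of 35 interferon-stimulated genes 26 were lower (median -0.13, but -0.01 with 18 lower without day 4 6.7 Gy replicate 4). Among them IRF7 was lower and IFI16, a DNA sensor, higher (0.27, SE 0.13, and 0.78, SE 0.26, on its second probe).

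Of 27 G2/M and mitosis genes 24 were lower at 7.4 Gy, by a median of -0.20 that was -0.35 on day 4 and -0.05 on day 7, and none had an unadjusted p under 0.05. CENPF of the kinetochore was first in p (-0.39, SE 0.22), followed by the phosphatase CDC25C (-0.31, SE 0.18), and without day 4 6.7 Gy replicate 4 the median was -0.06, while with position as a block it was -0.39. Of 24 DNA replication and S phase genes 18 were lower (median -0.08), with 8 lower without that array (median 0.01) and 21 lower with position as a block (median -0.21), and with RRM1, which makes deoxynucleotides, at -0.22 (SE 0.16) and the replication factor MCM10 at -0.24 (SE 0.20). Of 11 crypt stem cell genes 9 were lower (median -0.08), with RNF43, an inhibitor of Wnt signalling, at -0.20 (SE 0.14), while the probes of SOX9, a factor of crypt progenitors, disagreed (-0.13 and 0.05).

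Lists of differentiated epithelium had medians near 0 over both days. Enterocyte absorption genes were higher in 14 and lower in 12 of 26 (median 0.02), but without day 4 6.7 Gy replicate 4 they were higher in 9 (median -0.18) and with position as a block in 19 (median 0.18). LCT, lactase, was at 0.62 (SE 0.39), and at 1.12 (SE 0.54) on its second probe, and the fructose transporter SLC2A5 at -0.57 (SE 0.36). Ileal bile acid genes were higher in 6 of 10 (median 0.04), in 9 on day 4 (median 0.19) and in 3 on day 7 (median -0.17). FGF19, the hormone the ileum releases on bile acid uptake, had an estimate of 1.38 (SE 0.66, 95% interval -0.02 to 2.77, adjusted p = 0.818), with 7.4 Gy arrays from -3.44 to 1.25 on day 7, and NR0B2, a nuclear receptor induced by bile acids, gave 0.64 (SE 0.36). With position as a block these were 0.86 for FGF19 and 0.09 for NR0B2. Paneth and antimicrobial genes were higher in 6 of 11 (REG1A, a lectin of the regenerating family, -0.63, SE 0.29, and the bacterial sensor NOD2 0.30, SE 0.18). Goblet cell genes were lower in 5 of 8, with 5 higher on day 4 and 0 on day 7 (AGR2, which folds mucins, -0.41, SE 0.21, and KLF4 -0.25, SE 0.13). Second probes gave 0.04 for NOD2 and -0.13 for KLF4. Tight junction genes were lower in 15 of 21 with a median of -0.04 (CLDN15 -0.18, SE 0.15), and CGNL1 gave -0.86 (SE 0.56), which was -0.28 without day 4 6.7 Gy replicate 4. Enteroendocrine genes were lower in 10 of 17 (median -0.02), with chromogranin CHGB at 0.43 (SE 0.16) and the incretin GIP at -1.34 (SE 0.62).

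The p53 target list, 24 genes tested, was higher in 17 with a median of 0.05, which ran to -0.00 without day 7 7.4 Gy replicate 1 and to 0.17 with 22 higher with position as a block. RPS27L, a p53-induced ribosomal protein, differed by 0.27 (SE 0.11). GDF15, a secreted stress cytokine induced by p53, measured 3.87, 3.71, 2.84 and 4.18 at 6.7 Gy and 4.15, 4.09, 4.65 and 3.33 at 7.4 Gy on day 4, against -0.30 to 0.08 in controls. The difference of GDF15 between doses was 0.33 (SE 0.24, and 0.61 with position as a block), that of EDA2R, a receptor of the tumour necrosis factor family, 0.36 (SE 0.19), and that of CDKN1A, the cell cycle inhibitor p21, -0.19 (SE 0.13). EDA2R averaged -2.81 in controls and 0.56, 0.84, -0.53 and -0.08 in the groups day 4 6.7 Gy, day 4 7.4 Gy, day 7 6.7 Gy and day 7 7.4 Gy. For both GDF15 and EDA2R the doses overlapped on each day, while every irradiated array lay above every control array.

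Of 44 chemokines and NF-kB targets 28 were higher (median 0.05). CCL11, the eosinophil attractant eotaxin, differed by 0.69 (SE 0.28), and CCL19, the ligand of CCR7, by -0.46 (SE 0.23, 95% interval -0.94 to 0.03). CCL2, the monocyte attractant, gave 0.22 (SE 0.21), CXCL8, the neutrophil attractant, 0.12 (SE 0.35, and -0.08 without day 4 6.7 Gy replicate 3 and -0.01 with position as a block), the interferon-induced CXCL10 and CXCL11 gave -0.23 (SE 0.47) and 0.26 (SE 0.50), and TNF, the inflammatory cytokine, gave 0.14 (SE 0.25). The interval for TNF was -0.38 to 0.66 and that for CXCL11 was -0.81 to 1.32, so a 2-fold dose difference lay outside the interval of TNF and inside that of CXCL11. HBB, beta globin, differed by -0.24 (SE 0.38, and by 0.08 with position as a block, -0.55 without day 4 7.4 Gy replicate 1 and -0.09 without day 4 6.7 Gy replicate 2) and ranged from 0.80 to 2.76 in controls, above every irradiated array. LCN15, a lipocalin, differed by 0.46 (SE 0.46, and 0.20 without day 4 6.7 Gy replicate 3), with 1.23, -1.04, -1.16 and 1.28 at 6.7 Gy and 0.90, 1.02, 1.64 and 1.96 at 7.4 Gy on day 4, against -6.21 to -5.12 in controls.

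The remaining lists had medians between -0.06 and 0.07. Immediate early genes were higher in 10 of 22 (EGR2 0.43, SE 0.16), metallothionein and antioxidant genes in 10 of 18 (GPX3 0.30, CAT 0.29), AhR-inducible genes in 3 of 8, with 5 on day 4 (median 0.09) and 1 on day 7 (median -0.24; CYP1B1 0.35, NFE2L2 -0.19), and EGFR ligands and YAP targets in 6 of 11 (BTC 0.74, EREG 0.27). FOSB, a dim immediate early gene well above background on 2 of 4 arrays at 6.7 Gy on day 4, gave 1.0 (SE 0.32) and 0.27 with normexp background correction. Over the lists described, no member was called, and the medians ran from -0.29 for plasma cell genes to 0.39 for collagens and matrix.

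Few list medians were steady when single arrays were left out. Of 38 lists, 8 kept their sign and stayed within 1.5 times their median without any 1 array: collagens and matrix, coagulation and fibrinolysis, macrophage, enteric neuron and glia, endothelial, platelet and megakaryocyte, endoplasmic reticulum and integrated stress, and respiratory chain. The other 30 moved further or turned sign, as did 41 of the 103 named genes, so their sizes are loose. The array that stood apart, day 4 6.7 Gy replicate 4, weighed on several further values. Without it the medians were 0.00 for granulocyte genes, -0.09 for ileal bile acid genes and 0.03 for immediate early genes, each of the opposite sign to that over all arrays. The chemokines and NF-kB targets median was 0.13 with 32 of 44 higher, the matrix metalloproteinases and inhibitors median 0.12 with 12 of 15 higher, and the Paneth and antimicrobial median 0.21 with 8 of 11 higher. Among inflammatory genes, CXCL8 gave 0.39, CXCL10 0.18, CXCL11 0.74 and TNF 0.30 without it. The epithelial genes LCT and SLC2A5 gave 0.34 and -0.86, and RRM1 and MCM10 gave -0.11 and -0.12.

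**Figure D4:**
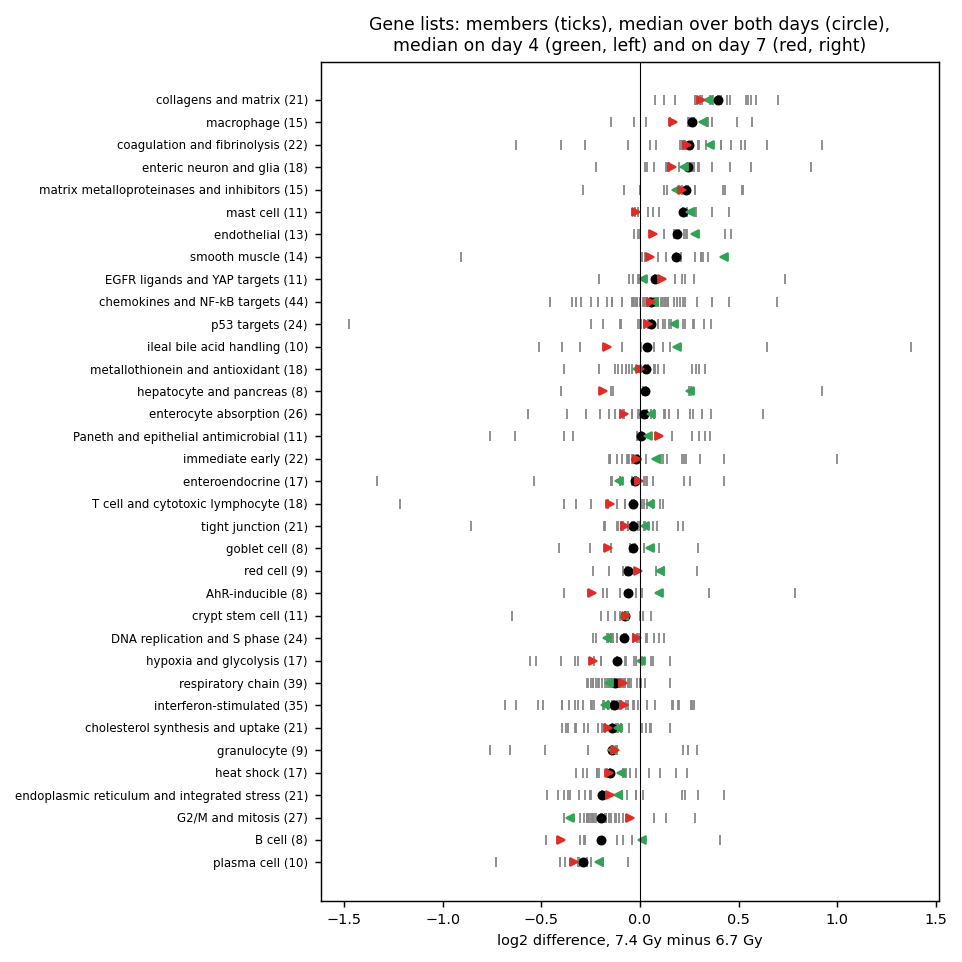
Dose difference (log2, 7.4 Gy minus 6.7 Gy) of the tested members of each gene list as ticks, with the list median over both days as a circle and the medians on day 4 and day 7 as triangles. Collagens and matrix lie wholly above 0 with a median of 0.39, and plasma cell genes wholly below 0 with a median of -0.29.

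Whether the dose difference changed between the days was asked with the dose by day interaction, the difference on day 7 minus that on day 4. No probe was called (0% of 34274, smallest adjusted p = 0.997), and 275 probes (0.802%) had an unadjusted p under 0.05 and a fold of at least 2, with 1230 (3.59%) at any fold. The median interval of the interaction was wider than that of the dose difference, reaching a 1.5-fold difference on either side. Of the list members, none was called here either.

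PIGT, a subunit of the enzyme that attaches GPI anchors, had the smallest interaction p among named genes. It measured 0.76, 0.45, 0.54 and 0.90 at 6.7 Gy and 0.40, 0.24, 0.33 and 0.15 at 7.4 Gy on day 4. On day 7 it measured 0.37, 0.52, 0.33 and -0.20 at 6.7 Gy and 0.68, 1.02, 1.1 and 0.93 at 7.4 Gy. The 7.4 Gy arrays lay below the 6.7 Gy arrays on day 4 and above them on day 7, without overlap. The interaction of PIGT was 1.06 (95% interval 0.58 to 1.54, adjusted p = 0.997), and its other probes gave 0.64 and 0.61. SLC25A20, the carnitine carrier of fatty acid oxidation, ran the same way, with a difference of -0.23 on day 4 and 0.53 on day 7 (interaction 0.75, adjusted p = 0.997) and no overlap on either day.

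The other genes of small interaction p had a positive or near-zero difference on day 4 and a negative one on day 7. THSD1, a thrombospondin domain protein of endothelium, measured -2.17, -1.65, -2.10 and -2.39 at 6.7 Gy and -1.66, -1.81, -2.19 and -1.90 at 7.4 Gy on day 4. On day 7 THSD1 measured -1.10, -1.10, -0.13 and -1.07 at 6.7 Gy and -1.97, -2.35, -1.72 and -2.27 at 7.4 Gy, without overlap (interaction -1.42, 95% interval -2.10 to -0.73). BARX2, a homeobox factor, differed by 1.0 on day 4 and -0.36 on day 7, and CD101, a membrane protein of lymphoid and myeloid cells, by 0.73 and -0.22. KCTD4 differed by 1.04 and -0.54 near background, since it was well above background on 2 of 4 arrays at 6.7 Gy on day 4.

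Of the list genes, NEFM and GIP were chosen for display after their values were seen. NEFM measured -3.43, -2.73, -2.53 and -3.37 at 6.7 Gy and -0.78, -1.71, -1.80 and -1.32 at 7.4 Gy on day 4, and the doses overlapped on day 7 (interaction -1.49, 95% interval -2.40 to -0.58). GIP, a hormone of the upper small intestine, measured -1.05, -1.59, -1.25 and -2.27 at 6.7 Gy and -5.03, -6.12, -3.17 and -2.52 at 7.4 Gy on day 4, and differed by -0.00 on day 7 (interaction 2.67, 95% interval 0.36 to 4.97). GIP arrays at 7.4 Gy spread over several log2 units on either day, which the plot of 6 genes by dose and day shows.

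**Figure D5:**
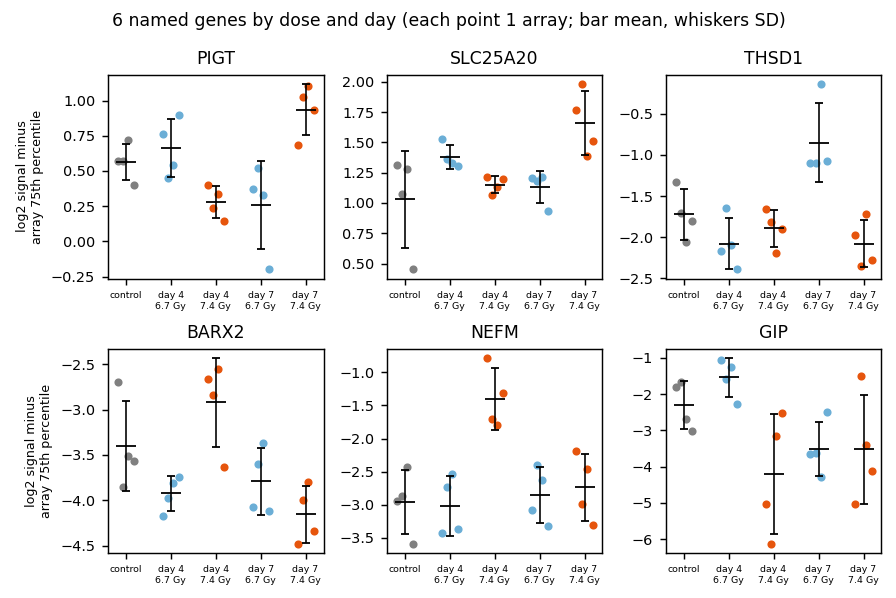
Levels (log2 signal minus the array's 75th percentile) of 6 named genes by group, each point 1 array, bars the group mean and whiskers 1 SD (n = 4). PIGT and SLC25A20 at 7.4 Gy lie below 6.7 Gy on day 4 and above it on day 7, and NEFM is set apart at 7.4 Gy on day 4.

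Without a gene name in the tables used, the probe A_01_P1700991 had the second smallest p of the dose comparison. It measured -2.49, -2.26, -2.58 and -2.24 at 6.7 Gy and -4.56, -6.16, -5.23 and -5.78 at 7.4 Gy on day 4. On day 7 it measured -4.05, -2.69, -4.63 and -3.81 at 6.7 Gy and -6.03, -7.26, -3.74 and -7.44 at 7.4 Gy, where it was well above background on 1 of 4 arrays. The doses were separate on day 4 and overlapped on day 7 through replicate 3 of the 7.4 Gy group, and the controls were at -3.97 to -2.05. The difference was -2.68 (adjusted p = 0.318), and since 3 of the 4 arrays at 7.4 Gy on day 7 did not measure this probe above background, its size there is loose.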

How the data were processed

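Total RNA of macaque ileum was labelled with Cy3 and hybridised to 1-colour arrays, 1 animal per array without pooling. Samples with RNA integrity numbers under the study's limit were not hybridised, per its methods. The authors deposited the scanner output of each array, in which Feature Extraction had subtracted background and detrended the processed intensity. They also deposited a table of unscaled intensities, equal to the processed signals for all 43553 probes with 1 spot (relative tolerance 1e-05), and a table of log2 normalized values, which the authors scaled to the 75th percentile and which proved centred on each probe's median over the arrays. That table served as an alternative.

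Groups came from the labels. Control spots were left out, and the spots of each of the 43603 probes were averaged. The log2 of the processed signal minus the array's 75th percentile was fitted in limma 3.58.1 (R 4.3.3) with dose and day on the 16 arrays, and with their product for the interaction and the values within each day. Dim probes were dropped unless the scanner flagged them above background on the full set of arrays in 1 or more of the 4 groups, which left 34274. limma took the place of the study's t-test, which cannot hold the day block. A probe was called at a Benjamini-Hochberg adjusted p under 0.05 over all tested probes with a fold of at least 2. The scripts were tested on simulated data.

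Gene symbols came from the array files and, for 8317 probes, from RefSeq accessions, giving 18972 probes of 12486 symbols. The files' coordinates are on rheMac2, and no genome of that build was used. A gene is its brightest tested probe, which left 10838 genes. Named genes were the 8 of smallest p higher and the 8 lower at 7.4 Gy, the 6 of smallest interaction p, 12 genes of earlier reports on this tissue, and 2 members of smallest p per list. One gene that this rule names is not reported here. The comparison, the lists and these genes were chosen with earlier results of these data known, so gene lists are described by counts and medians beside all genes, with no set test. The animals are separate, so p-values measure the spread between animals and arrays, whose number sets the precision. Alternatives covered normalization, background, filters, model, replicate number, slide, position, scan day and each array left out.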

Additional observations from a re-analysis of the deposited data

Results flagged for a closer look

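In groups of 4 arrays, a value was singled out where its gap to the nearest other array as a share of the group's range exceeded Dixon's 95% critical value. Of 412 gene and group combinations 23 passed (5.58%) and of 152 list and group combinations 6 (3.95%), and chance passes about 1 in 20. No cause was tested.

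Among genes lower at 7.4 Gy, CCR7 was at -3.59 in the day 4 7.4 Gy replicate 1, TMEM89 at -3.18 in the day 4 6.7 Gy replicate 4, LDHA at 5.01 in the day 4 7.4 Gy replicate 2 and IRF7 at 2.45 in the day 7 7.4 Gy replicate 3. The LDHA and IRF7 arrays lay on the 6.7 Gy side of their group. ADAMTS5, higher at 7.4 Gy, was at -2.32 in the day 7 6.7 Gy replicate 3, below the rest of its group.

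The day 7 7.4 Gy replicate 3 array was also far from its group for CCL2 (-2.54), CCL19 (-1.60) and CSF1R (-0.21), each below the other 3 arrays. In the day 7 7.4 Gy replicate 2 array, XBP1 was at 4.18, RNF43 at 0.19, RRM1 at 1.22 and the endoplasmic reticulum and integrated stress list level at -0.066. In the same group HSPA8 was at 5.42 in replicate 1, and the EGFR ligands and YAP targets level at 0.29 in replicate 4.

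On day 4 at 7.4 Gy, HBB was at -2.24, MMP25 at 0.23 and the coagulation and fibrinolysis level at 0.38 in replicate 1, and FOSB was at -4.33, REG1A at 6.55 and the plasma cell level at 0.51 in replicate 3. On day 4 at 6.7 Gy, CCL11 was at 0.90, CGNL1 at 0.50 and the heat shock level at 0.57 in replicate 4, the array that stood apart on the principal components, and UQCRC2 was at 2.74 and the enteric neuron and glia level at 0.69 in replicate 2. On day 7 at 6.7 Gy, FOSB was at -6.15 in replicate 2, THSD1 at -0.13 in replicate 3, and SLC25A20 at 0.94 and TREML1 at -3.87 in replicate 4. For THSD1 the 3 other arrays of that group lay between -1.10 and -1.07, and each of the 4 was above every 7.4 Gy array of day 7.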

How the results depend on the processing

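The dose effect over both days had 0 calls, and under the alternatives run it had calls only with array quality weights (1, RBP5), with the methods' t-test without adjustment (38) and with single arrays left out (0 to 2). The 2 calls without day 4 6.7 Gy replicate 2 were LOC704095 and an unnamed probe (adjusted p = 0.0434), and 1 call came without day 4 6.7 Gy replicate 4 (RBP5) and without day 7 7.4 Gy replicate 3 (an unnamed probe that was not well above background on the other 3 arrays of that group, so its fitted size has no meaning there). The day 4 effect had 1 call with position on the slide as a block and 3 within positions 2 and 3 (ELN 1.36, SLC45A1 1.65 and an unnamed probe at -2.01), and 0 to 2 with an array left out. The day 7 effect had 0 to 2 with an array left out, the 2 without day 7 7.4 Gy replicate 3, and the interaction 0 throughout. The count at an unadjusted p under 0.05 at any fold, 2077, was 3687 without day 4 6.7 Gy replicate 2 and 4308 with array quality weights, but 1358 with no day block and 1380 by the methods' t-test. Over 1 probe per gene fewer features were tested, and 724 of 10838 genes passed, 468 higher (4.32%) and 256 lower (2.36%). The smallest adjusted p in limma was 0.0957 there, against 0.303 over all probes. The replicate block gave 0 calls for the dose effect, the interaction, day 4 and day 7. The numbers do not pair the arrays, since same-numbered arrays correlated at -0.206 to 0.105 and 2 of 8 matched their own number best, and the block left the dose effect with 51 probes at an unadjusted p under 0.05 and a fold of at least 2. The cause of these differences was not tested.

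Of the 103 named genes, 96 kept the sign of their difference under all alternatives run, and 11 of 3699 values changed sign. Of 38 lists, 23 kept the sign of the median. Leaving out 1 array turned the sign of 0 to 5 list medians, 5 without day 4 6.7 Gy replicate 4 (DNA replication and S phase, enterocyte absorption, ileal bile acid, granulocyte and immediate early). The collagens and matrix median ran from 0.32 to 0.48, the macrophage median from 0.19 to 0.31 and the plasma cell median from -0.39 to -0.16. The platelet and megakaryocyte median was 0.034 with normexp, against 0.18. Median centring left 45.6% of genes higher. Adjusted p for RBP5 ran from 0.00531 to 0.898 and its difference from -1.29 to -0.93. Scan day as a block, leaving out outlier spots, and adjusting over 1 probe per gene were added after seeing the data. The normexp alternative used median spot signals, since mean signals are not among the columns used here, and position stood in place of day, which it cannot sit beside. Of the named genes, normexp made 28 differences smaller by over 1.5 times, none larger, and turned the sign of 1 (KCTD4). Position as a block made 15 smaller and 16 larger by that much and turned the sign of 3 (CXCL8, CXCL11 and HBB). Signal over background limits KCTD4 and FOSB, each well above background on 2 of 4 arrays at 6.7 Gy on day 4.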
